A study of Drosophila melanogaster with 9 samples.

Results

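Cuticle tanning and pigmentation genes were followed in late Drosophila melanogaster embryos in which early neural stem cell factors had been misexpressed. The set was chosen by gene symbol and holds 9 genes (y, ple, Ddc, e, b, laccase2, yellow-e, yellow-f and Pu), of which 7 have a row among the 10221 rows of the deposited gene table. Ddc and b have no row and were not analysed here. All 7 remaining genes passed the filter on low values (at least 0.5 RPKM in at least 3 libraries), as did 6190 genes in all.

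RNA came from whole embryos of stage 16 up to air filling of the trachea, with over 200 embryos in each collection, and 9 libraries were sequenced, 3 per genotype. Per the sample titles, every embryo carried the Insc-Gal4 driver, named for a gene of dividing neural precursors. Headers of the unused linear RPKM columns name another driver (da) for 2 of the 3 controls, a conflict that was not resolved here. Hexa embryos added UAS-(hb, ase, Kr; wor, nub, SoxN), a set of 6 transcription factor transgenes. Quad embryos added the 4 transgenes UAS-(ase, Kr; wor, SoxN). Control embryos had the driver over OregonR chromosomes and no UAS transgene, and none of the groups had UAS transgenes in the absence of Insc-Gal4. The labels assign Hexa to experiment 3, Quad to experiment 2 and the control to experiment 1, so genotype, experiment and stock background cannot be told apart. In whole embryos, fewer cells of a type and less RNA per cell cannot be told apart either.

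The cuticle of an insect hardens and darkens when catecholamines made from tyrosine are oxidised to quinones, which then bind cuticle proteins or polymerise to melanin. Tyrosine hydroxylase, encoded by ple, makes dopa with a pterin cofactor whose synthesis begins with the GTP cyclohydrolase encoded by Pu. Dopa decarboxylase (Ddc) converts dopa to dopamine, the ebony protein (e) joins dopamine to beta-alanine, which the decarboxylase encoded by b supplies, and the oxidase encoded by laccase2 turns these catechols into quinones. Yellow family proteins are secreted, and y itself is needed for black pigment, which appears late in embryogenesis in the mouth hooks and denticles. Tyrosine hydroxylase, its cofactor and Ddc also serve dopamine neurons, so whole-embryo levels of ple and Pu mix epidermis and nervous system.

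The members spanned a wide range of levels (RPKM, reads scaled by transcript length and library size, which allows levels of different genes to be compared per length). For laccase2, ple, Pu and yellow-f, which have several annotated transcripts, deposited counts fall short of the reads that RPKM implies. Their ranks against y, e and yellow-e are uncertain in that respect. In the controls laccase2 was highest at 69.9 ± 9.40 RPKM (SD, n = 3, as for all levels here), above 90.7% of the tested genes. It was followed by ple at 45.9 ± 3.13, y at 36.8 ± 6.99 and Pu at 27.1 ± 2.20 RPKM. The genes e (8.61 ± 0.690 RPKM) and yellow-e (6.79 ± 1.31 RPKM) were lower and their control libraries overlapped, as did those of ple and y, while yellow-f was last at 1.56 ± 0.363 RPKM. The order differed in the misexpression embryos. In Hexa embryos y stood first at 56.7 ± 8.93 RPKM, ahead of laccase2 at 42.2 ± 10.2 and ple at 32.9 ± 12.9 RPKM, and the libraries of laccase2 overlapped with those of both. In Quad embryos laccase2 (74.7 ± 2.62 RPKM) and y (72.8 ± 8.27 RPKM) overlapped at the top.

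**Figure D1:**
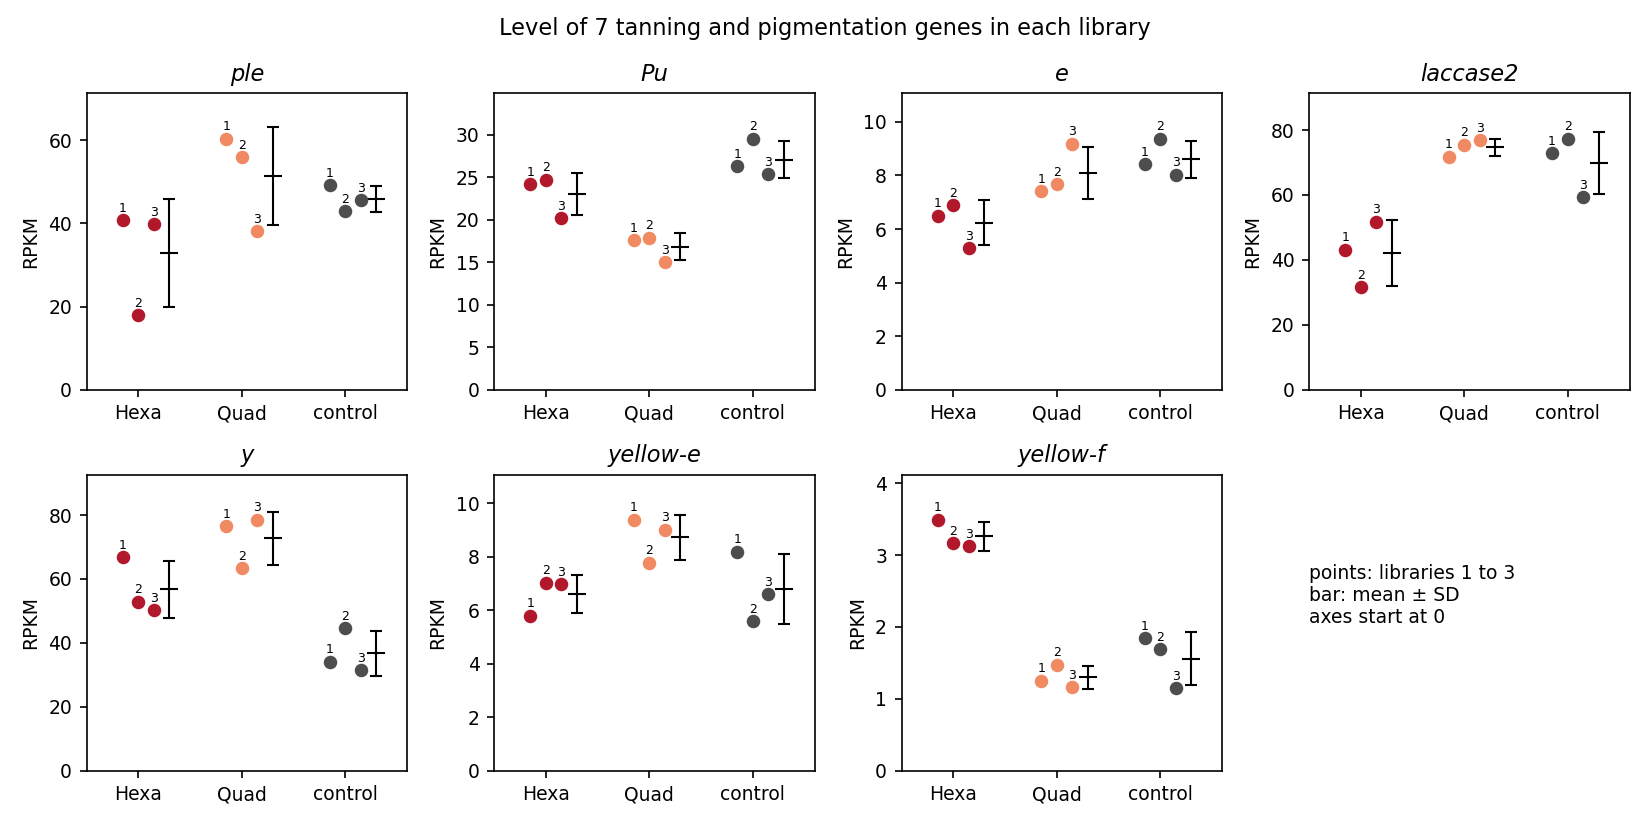
RPKM of the 7 genes (a panel each, axes from 0) in Hexa, Quad and control libraries, with numbered points for libraries 1 to 3 and a bar for the mean ± SD. The Hexa points of laccase2 (31.6 to 51.8 RPKM) lie below all control points, those of yellow-f (3.13 to 3.49 RPKM) above them, and y lies above the control in both misexpression genotypes.

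Differences were tested with limma on log2(RPKM + 0.1), all 9 libraries in 1 fit, and p-values were adjusted (Benjamini-Hochberg) over the 6190 tested genes. A difference is called at an adjusted p under 0.05, and log2 differences are given with the standard error of that fit. Hexa and Quad were set against the same 3 control libraries. Of the 7 members, 4 were called in Hexa against control, 2 higher (y, yellow-f) and 2 lower (laccase2, e), where 32.3% of all tested genes were called (19.1% higher and 13.1% lower). In Quad against control 2 were called, y higher and Pu lower, against 4.68% of all tested genes (2.16% higher and 2.52% lower). Hexa against Quad gave 3 calls, yellow-f and Pu higher and laccase2 lower, where 23.1% of all tested genes were called (13.5% higher and 9.63% lower; of these calls 58.4% were higher, and 46.5% were with TMM factors on RPKM). Libraries of both groups did not overlap for 6 of the 7 in Hexa against control, 2 higher and 4 lower, where 51.6% of tested genes did not overlap (28.0% higher and 23.7% lower). The count was 2 in Quad against control, 1 in each direction, where it held for 30.2% (15.2% higher and 15.0% lower), and 5 in Hexa against Quad, 2 higher and 3 lower, where it held for 50.8% (28.6% higher and 22.2% lower). With 7 genes such counts are small, and the Hexa counts are to be read against that high background. The median log2 difference of the 7 was -0.23 in Hexa against control, 0.10 in Quad against control and -0.37 in Hexa against Quad, while the median of all tested genes was 0.03, 0.02 and 0.06.

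**Figure D2:**
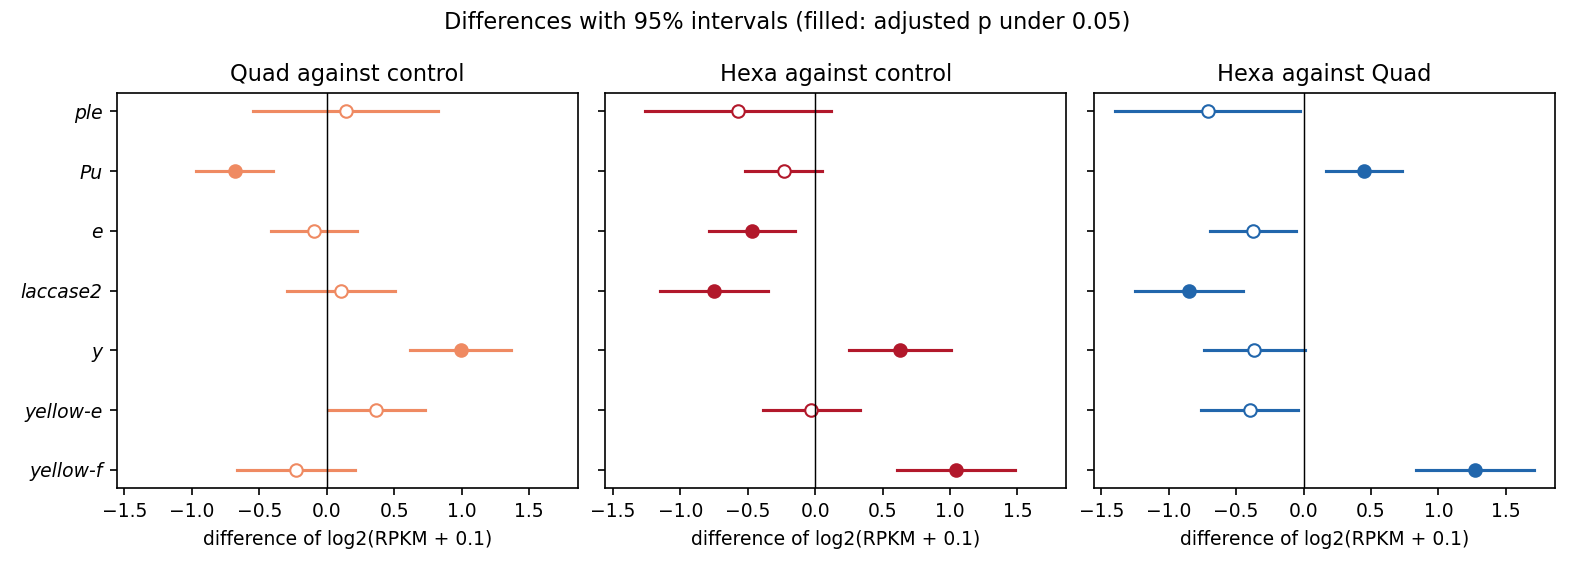
Differences of log2(RPKM + 0.1) for the 7 genes with 95% intervals from the limma fit, with a panel per comparison. Filled points passed at an adjusted p under 0.05, such as laccase2 in Hexa against control (-0.75) and y in Quad against control (0.99), and open points did not.

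The first steps of the pathway were represented by ple and Pu. The tyrosine hydroxylase gene ple had 40.8, 18.0 and 39.8 RPKM in Hexa libraries 1, 2 and 3, 60.4, 56.0 and 38.2 in Quad and 49.3, 43.0 and 45.5 in the controls. All Hexa values lay below all control values, but Hexa 2 stood far below the other 2 and the Quad libraries ran on both sides of the control. The log2 difference was -0.57 ± 0.30 in Hexa against control (adjusted p = 0.154), 0.14 ± 0.30 in Quad against control (adjusted p = 0.849) and -0.71 ± 0.30 in Hexa against Quad (adjusted p = 0.112). None of these passed, and the 95% interval in Hexa against control ran from -1.26 to 0.12. Without Hexa 2 the ple difference from the control was -0.19. The deposited counts of ple (113 to 197 reads) hold 0.629 to 2.75% of the reads that its RPKM implies, and the sign of each comparison turned round in them.

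Pu, which encodes the GTP cyclohydrolase at the start of tetrahydrobiopterin synthesis, had 24.2, 24.7 and 20.2 RPKM in Hexa, 17.6, 17.9 and 15.0 in Quad and 26.3, 29.5 and 25.4 in the controls. No library of one genotype overlapped with those of another. Pu fell in Quad by 0.68 ± 0.13 on the log2 scale against the control (adjusted p = 0.0145), a ratio of mean RPKM of 0.622. The call was lost without Quad 1 or Quad 3 (adjusted p up to 0.0666). Hexa against control did not pass (log2 -0.23 ± 0.13, adjusted p = 0.155). Between the misexpression genotypes Pu was the higher in Hexa, by log2 0.45 ± 0.13 (adjusted p = 0.0344). This call did not survive leaving out control 1, Hexa 1, Hexa 2 or a single Quad library (adjusted p up to 0.122), nor dropping the filter on low values (adjusted p = 0.0537). In the count column, which holds 4.72 to 8.45% of the reads implied for Pu, neither call was made. By edgeR on those counts, Pu in Quad against control gave log2 -0.41 (adjusted p = 0.401), and Hexa against Quad had the opposite sign (log2 -0.11, adjusted p = 0.783). In the annotation Pu overlaps CG4286, which was at 0.129 RPKM or less in every library, and how reads of overlapping genes were assigned is not stated.

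Of the other enzymes of tyrosine and cofactor supply, Hn, Pcd and Sptr rose in Hexa embryos. Among all tested genes 19.1% were called higher in Hexa against control and 13.5% in Hexa against Quad. The listed enzyme genes pr, Dhpr and amd had no row. Hn encodes phenylalanine hydroxylase, which makes tyrosine with the same cofactor, and rose to 53.3 ± 2.93 RPKM in Hexa, against 37.7 ± 1.25 in Quad and 39.6 ± 6.01 in the controls (log2 0.44 ± 0.13 in Hexa against control, adjusted p = 0.0297). Pcd, whose product recycles the cofactor, had 29.8, 36.0 and 23.0 RPKM in Hexa and 14.9, 14.3 and 17.3 in the controls, a rise by log2 0.91 ± 0.16 (adjusted p = 0.00419). The sepiapterin reductase gene Sptr rose as well, at 4.94 to 5.12 RPKM in Hexa, against 3.11 to 3.42 RPKM in the controls (a log2 difference of 0.59 ± 0.12, adjusted p = 0.00849). All 3 were also higher in Hexa than in Quad (log2 0.50, 0.72 and 0.59 for Hn, Pcd and Sptr, with adjusted p of 0.0249, 0.0157 and 0.0127), and none was called in Quad against control. The calls of Pcd and Sptr against the control held without any 1 library (adjusted p up to 0.0192 and 0.039), although edgeR on the counts without a filter did not call Sptr (adjusted p = 0.0961). That of Hn was lost without control 2, Hexa 1 or Hexa 2 (adjusted p up to 0.0707), with TMM factors (adjusted p = 0.0515), in the fit of the 2 groups alone (adjusted p = 0.0801) and in the counts, where its sign turned round. Against Quad, the call of Hn failed on removal of Hexa 1, Hexa 2 or a single Quad library (adjusted p up to 0.0882), that of Pcd on removal of Hexa 1 or a single Quad library (up to 0.055) and that of Sptr on removal of Quad 3 (0.0589). The counts ended the call of Hn against Quad in all 4 tests (log2 0.16 to 0.21, adjusted p = 0.725 to 0.777) and that of Sptr in all 3 edgeR tests (adjusted p = 0.0744 to 0.147). Catsup, a negative regulator of tyrosine hydroxylase, stood at 40.5, 35.9 and 45.9 RPKM in Hexa and 55.7, 46.4 and 55.2 in the controls and did not pass (log2 -0.36 ± 0.13, adjusted p = 0.0538). It did pass without control 2 or Hexa 3 (adjusted p down to 0.0301) and with a filter of 2 RPKM (0.0492).

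Dopamine conjugation was represented by e, whose product joins beta-alanine to dopamine for pale cuticle. The levels of e were 6.50, 6.90 and 5.30 RPKM in Hexa, 7.42, 7.67 and 9.19 in Quad and 8.42, 9.37 and 8.04 in the controls. Hexa values lay below all others, and Quad and control overlapped. Relative to the control, e fell by 0.47 ± 0.14 on the log2 scale in Hexa (adjusted p = 0.0351) and differed by -0.09 ± 0.14 in Quad (adjusted p = 0.777). Hexa against Quad did not pass (log2 -0.37 ± 0.14, adjusted p = 0.0792), but did with TMM factors on RPKM (adjusted p = 0.043). The Hexa call was close to the threshold: it was lost without any 1 control, Quad 2, Hexa 1 or Hexa 3 (adjusted p up to 0.0784) in the fit of the 2 groups alone (adjusted p = 0.0755) and without the filter on low values (adjusted p = 0.0554). For e the count column holds all reads behind the RPKM, and edgeR on the counts called the fall in Hexa (1352, 1381 and 1473 reads in Hexa, against 2434, 2741 and 2258 in the controls, a log2 difference of -0.53 with adjusted p = 0.027). Against Quad, whose counts were 2208, 2033 and 2551, e was called on the counts with edgeR scaled to library totals (adjusted p = 0.0464) and with DESeq2 (0.0431), and not with edgeR and TMM (0.0518, and 0.0969 without a filter). The gene t, whose product releases dopamine from its beta-alanine conjugate, stood at 6.67 ± 1.31 RPKM in Hexa, 6.21 ± 0.225 in Quad and 5.71 ± 0.867 in the controls and did not pass in any comparison (adjusted p = 0.296 to 0.727).

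The oxidase gene laccase2 had the largest fall among the 7 members in Hexa against control. It had 43.2, 31.6 and 51.8 RPKM in Hexa, 71.8, 75.5 and 76.8 in Quad and 72.9, 77.4 and 59.3 in the controls. Every Hexa library lay below every Quad and control library, and the Quad libraries lay within the range of the controls. The fall in Hexa was log2 -0.75 ± 0.18 against the control (adjusted p = 0.016, ratio of mean RPKM 0.604) and -0.85 ± 0.18 against Quad (adjusted p = 0.0131, ratio 0.565), while Quad against control gave 0.10 ± 0.18 (adjusted p = 0.80). The first call was lost without control 1 (adjusted p = 0.0518) and in the fit of the 2 groups alone (adjusted p = 0.051), the second without Quad 3 (adjusted p = 0.0544). With Hexa 1 as the only Hexa library both falls were called (log2 -0.68 and -0.79, adjusted p = 0.0411 and 0.0316), the lone library being assumed to vary like the others. The counts, which hold 7.10 to 17.5% of the reads implied for this gene with 5 annotated transcripts, gave a fall in Hexa against control by edgeR (log2 -0.57, adjusted p = 0.0416) and none past the threshold against Quad (log2 -0.36, adjusted p = 0.178).

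The prophenoloxidase genes PPO1 and PPO2, whose products make melanin in blood and wounds rather than in cuticle, stood lower in Hexa together with laccase2. PPO1 had 31.5, 35.5 and 49.6 RPKM in Hexa, 60.4, 63.0 and 64.5 in Quad and 69.8, 56.4 and 65.5 in the controls (log2 -0.74 ± 0.17 in Hexa against control, adjusted p = 0.0123). PPO2 had 30.6, 34.3 and 51.2 RPKM in Hexa, against 73.1, 51.9 and 69.9 in the controls (a log2 difference of -0.77 ± 0.20, adjusted p = 0.0223). Both fell in Hexa against control, PPO1 without any 1 library as well (adjusted p up to 0.0473), while PPO2 was lost without control 1, control 3, Hexa 1 or Hexa 2 (adjusted p up to 0.0704) and in the fit of the 2 groups alone (adjusted p = 0.0611). PPO1 was lower than in Quad too (log2 -0.71, adjusted p = 0.0195; lost on removal of Hexa 1, Hexa 2 or a single Quad library, adjusted p up to 0.07). PPO3 was near 0 in all libraries (0.039 to 0.142 RPKM) and was not tested. Of the other multicopper oxidases, MCO3 was at 1.28 to 2.43 RPKM in Hexa, against 2.13 to 3.56 in the controls (a log2 difference of -0.78 ± 0.27, adjusted p = 0.0508) and CG32557, annotated as Mco4, at 4.64 to 6.0 RPKM in Hexa, against 4.30 to 5.05 in the controls (a log2 difference of 0.24 ± 0.14, adjusted p = 0.181).

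Of the yellow family, y was the member that was higher in both misexpression genotypes. Its levels were 66.9, 52.9 and 50.3 RPKM in Hexa, 76.5, 63.3 and 78.6 in Quad and 34.1, 44.7 and 31.4 in the controls. All 6 misexpression libraries exceeded all 3 controls, and Hexa and Quad overlapped. In Quad the rise was log2 0.99 ± 0.17 against the control (adjusted p = 0.00949, 95% interval 0.62 to 1.37), a ratio of mean RPKM of 1.98, and in Hexa it was 0.63 ± 0.17 (adjusted p = 0.0234, 95% interval 0.25 to 1.01), a ratio of 1.54. Hexa and Quad did not differ past the threshold (log2 -0.36 ± 0.17, adjusted p = 0.132). The Quad call was lost without Quad 1 (adjusted p = 0.0533). The Hexa call was lost without control 1, control 3 or Hexa 1 (adjusted p up to 0.0734), in the fit of the 2 groups alone (adjusted p = 0.0561) and with edgeR scaled to library totals (adjusted p = 0.0655). The gene has 1 annotated transcript and the count column holds all reads behind its RPKM: 9033, 6867 and 9076 reads in Hexa, 14768, 10878 and 14145 in Quad and 6403, 8470 and 5730 in the controls. In edgeR on these counts y rose by log2 1.03 in Quad (adjusted p = 0.00533) and 0.57 in Hexa (adjusted p = 0.039).

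Mutant and wild-type copies of y are widely used to mark laboratory stocks and transgene insertions, and the labels do not give the y alleles of any group. The other common marker of the X chromosome, w, had 65.4, 134 and 280 RPKM in Hexa, 87.0, 45.1 and 50.1 in Quad and 107, 41.8 and 117 in the controls, with overlap between all genotypes (log2 0.75 ± 0.57 in Hexa against control, adjusted p = 0.30; log2 -0.47 ± 0.57 in Quad, adjusted p = 0.715). Within each genotype the libraries of w ranked in the same order as the summed heat shock genes given below, and the cause was not tested. The gene ac, annotated next to y, was at 0.117 RPKM or less in every library. CG43182, the annotated neighbour on the other side, had 3.07, 2.13 and 1.08 RPKM in Hexa, 1.01, 0.709 and 0.361 in Quad and 0, 0.942 and 0.0891 in the controls. It was called in Hexa against control (log2 2.91 ± 0.80, adjusted p = 0.0278, a size that depends on the pseudocount since control 1 is at 0) and not in Quad (log2 1.46 ± 0.80, adjusted p = 0.353). These 2 neighbours were looked up after the values of y were seen. The gene y lies within the span of CG32816 on the opposite strand, and it is not stated whether counting used strand, so reads of this pair cannot be told apart. CG32816 has no row of its own.

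The gene yellow-f rose in Hexa, against both the control and Quad. The yellow-f protein speeds the conversion of dopachrome, a step towards melanin. Its RNA was at 3.49, 3.16 and 3.13 RPKM in Hexa, 1.25, 1.48 and 1.16 in Quad and 1.84, 1.69 and 1.15 in the controls. Hexa libraries lay above all others, and Quad and control overlapped. The rise in Hexa was log2 1.04 ± 0.19 against the control (adjusted p = 0.00572, ratio of mean RPKM 2.09) and 1.27 ± 0.19 against Quad (adjusted p = 0.0039, ratio 2.51). Quad against control gave -0.23 ± 0.19 (adjusted p = 0.563). Both rises held without any 1 library (adjusted p up to 0.0254 and 0.0212). They rest on RPKM, since the count column holds 3 to 13 reads of yellow-f per library (2.03 to 6.15% of those implied). On these counts edgeR without a filter called neither rise. It gave log2 0.63 against the control (adjusted p = 0.626) and 0.47 against Quad (adjusted p = 0.779). DESeq2 made no call against the control either (log2 0.64, adjusted p = 0.562). In the annotation yellow-f overlaps CG31342. How reads of overlapping genes were assigned is not stated, so reads of CG31342, which has no row of its own, may be part of these low values.

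The neighbouring gene yellow-f2, a close relative whose product has the same activity, rose in the same embryos. It had 20.8, 21.9 and 18.2 RPKM in Hexa, 12.4, 11.4 and 13.5 in Quad and 11.3, 13.0 and 12.8 in the controls, a rise by log2 0.71 ± 0.12 against the control (adjusted p = 0.00349) and 0.70 ± 0.12 against Quad (adjusted p = 0.00601). Both calls held in every other setting run, leave-one-out fits included. The sources used here do not say how reads matching both relatives were assigned, and the values of this pair are uncertain in that respect.

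The member yellow-e, a further relative, was at 5.80, 7.03 and 6.98 RPKM in Hexa, 9.38, 7.77 and 9.01 in Quad and 8.18, 5.59 and 6.60 in the controls. Control libraries overlapped with both misexpression genotypes, and every Hexa library lay below every Quad library. No comparison passed: log2 -0.03 ± 0.16 in Hexa against control (adjusted p = 0.892, 95% interval -0.39 to 0.33), 0.37 ± 0.16 in Quad against control (adjusted p = 0.242) and -0.40 ± 0.16 in Hexa against Quad (adjusted p = 0.0943).

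Of the other yellow genes, yellow-h fell in Hexa (17.9, 18.2 and 17.4 RPKM, against 22.0, 29.7 and 21.9 in the controls, log2 -0.44 ± 0.14, adjusted p = 0.0365). That call was lost without control 1, control 2, Quad 2, Quad 3 or any 1 of the Hexa libraries (adjusted p up to 0.0823), in the fit of the 2 groups alone (0.0845) and without the filter (0.0555). The gene yellow-c was lower in Hexa than in Quad (6.85, 4.91 and 7.34 against 9.30, 8.31 and 10.4 RPKM, log2 -0.56 ± 0.16, adjusted p = 0.0383), a call that needed every library but control 2 and Hexa 3 (adjusted p up to 0.128) and was lost in the fit of the 2 groups alone (0.0521), without the filter (0.0602) and in edgeR on the counts without a filter (0.903). Within the family of 14 listed genes, 10 had a row and 7 were tested. In Hexa against control 3 of these rose (y, yellow-f and yellow-f2) and 1 fell (yellow-h), beside 19.1% higher and 13.1% lower among all tested genes. In Quad against control y was the single call of the 7, beside 4.68% of all tested genes.

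**Figure D3:**
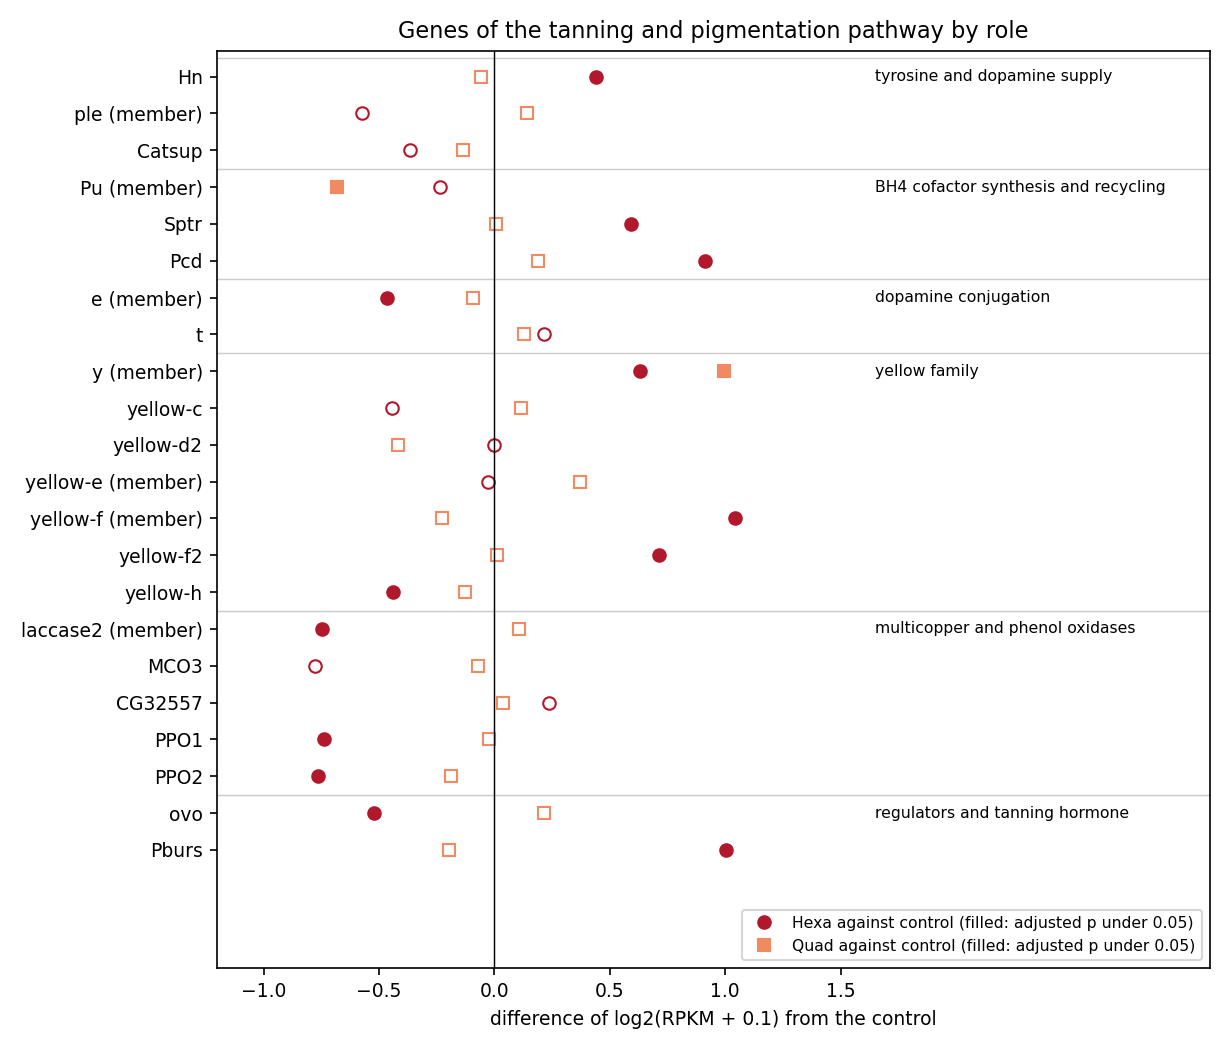
Difference of log2(RPKM + 0.1) from the control for the 22 tested genes of the pathway lists, grouped by role, for Hexa (circles) and Quad (squares), filled where the adjusted p was under 0.05. In Hexa the oxidase genes laccase2, PPO1 and PPO2 lie between -0.77 and -0.74, whereas the cofactor genes Pcd and Sptr lie at 0.91 and 0.59. The cofactor gene Pu (-0.23) and the oxidase genes MCO3 (-0.78) and CG32557 (0.24) did not pass.

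The wider pathway was read from lists of 33 further genes (tyrosine and cofactor supply, conjugation, the yellow family, oxidases, regulators and the tanning hormone), of which 19 had a row and 15 were tested. In Hexa against control 5 of the 15 rose and 4 fell, beside 19.1% higher and 13.1% lower among all tested genes, and the median was log2 -0.003 against 0.03 for all. In Quad against control limma called none of the 15 (4.68% of all tested genes were called; 1 of the 15 had an unadjusted p under 0.05, and edgeR and DESeq2 on the counts had 0 calls and 0 at that unadjusted p), and 7 had a positive difference. Hexa against Quad gave 5 higher and 3 lower, beside 13.5% and 9.63%. Of the 13 that edgeR with TMM tested on the counts, it called 6 in Hexa against control and 4 in Hexa against Quad. Among all 6178 genes that it tested, it called 1033 and 686.

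Among the regulators, Pburs, which encodes a subunit of the tanning hormone bursicon, was low but higher in Hexa (1.3, 1.5 and 1.2 RPKM, against 0.484, 0.805 and 0.353 in Quad and 0.558, 0.690 and 0.595 in the controls). The rise was log2 1.00 ± 0.27 against the control (adjusted p = 0.0247) and 1.20 ± 0.27 against Quad (adjusted p = 0.0173). At these low levels its size depends on the pseudocount, and with 1 RPKM it was 0.53 against the control and 0.60 against Quad. On the counts, the 3 edgeR tests did not call Pburs against the control (adjusted p = 0.0526 to 0.0824), and against Quad edgeR called it with TMM (0.0464) and not with library totals (0.0602) or without a filter (0.0633). The call on RPKM was lost against the control without control 1, control 3, Hexa 1 or Hexa 2 (adjusted p up to 0.0705) and against Quad without Quad 1, Quad 3, Hexa 1 or Hexa 2 (adjusted p up to 0.0619). The gene ovo encodes a factor that, in its epidermal form, directs the building of denticles and hairs. It was lower in Hexa (5.01, 5.6 and 6.39 RPKM, against 9.40, 9.92 and 9.11 in Quad and 7.22, 10.3 and 7.23 in the controls). The fall was log2 -0.52 ± 0.16 against the control (adjusted p = 0.0367), a call that needed every library but control 3 and Hexa 3 (adjusted p up to 0.103) and was lost in the fit of the 2 groups alone (0.0904) and without the filter (0.057). Against Quad it was log2 -0.74 ± 0.16 (adjusted p = 0.015), lost without Quad 2, Quad 3 or Hexa 1 (adjusted p up to 0.0563).

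Some markers of the tissues that use these enzymes differed between genotypes, and the members of a list did not always go the same way. Of 11 listed epidermis and chitin genes 5 had a row and all 5 were tested. In Hexa against control 3 of these fell, beside 13.1% lower among all tested genes. They were the chitin organiser knk (log2 -0.71, adjusted p = 0.0179) and the chitin deacetylase genes serp (log2 -0.42, adjusted p = 0.027) and verm (log2 -0.39, adjusted p = 0.0396). The other members did not pass: obst-A overlapped between Hexa and control (log2 -0.33, adjusted p = 0.135), and the chitinase gene Cht2 had the opposite sign, at 24.1 to 27.4 RPKM in Hexa and 20.3 to 21.8 in the controls (log2 0.31, adjusted p = 0.0528). The level summed over the 5 genes, most of it from verm, serp and obst-A, was 1033 to 1250 RPKM in Hexa, 1521 to 1575 in Quad and 1416 to 1683 in the controls, so the Hexa libraries stood below all others, as they did for laccase2 and e. Crystal cells are the blood cells that carry prophenoloxidase. Their 4 genes (lz, peb, PPO1 and PPO2) summed to 73.3 to 114 RPKM in Hexa, 129 to 140 in Quad and 126 to 156 in the controls. Most of this sum came from PPO1 and PPO2, given above, so it is not a separate readout. The gene peb did not pass in Hexa against control (log2 -0.34, adjusted p = 0.0683). The defining factor lz, too low to be tested, was at 0.113 to 0.342 RPKM in Hexa, 0.349 to 0.584 in Quad and 0.335 to 0.561 in the controls, so Hexa and control overlapped. For dopamine and serotonin neurons 3 of 4 genes had a row (DAT, SerT, Trh), summing to 17.5 to 21.1 RPKM in Hexa, 14.2 to 16.0 in Quad and 13.2 to 16.4 in the controls. Within that list the dopamine transporter gene DAT was at 5.40 to 5.65 RPKM in Hexa and 6.03 to 8.71 in the controls (adjusted p = 0.0618), while the serotonin genes SerT and Trh rose (log2 0.44 and 1.12, adjusted p = 0.0331 and 0.00251). No marker with a row was at 0 in all libraries. For plasmatocytes, a further blood cell, 4 of 6 genes had a row, summing to 32.0 to 40.3 RPKM in Hexa, 41.6 to 48.6 in Quad and 53.4 to 56.2 in the controls. Quad libraries thus lay below the controls as well. Most of this sum came from Pxn and crq. The 3 tested genes had a negative difference in Hexa against control. Pxn (log2 -0.755, adjusted p = 0.012) and NimC1 (log2 -0.51, adjusted p = 0.0359) passed, beside 13.1% lower among all tested genes. The gene crq did not (log2 -0.32, adjusted p = 0.0704). In contrast, eater, too low to be tested, had a higher mean in Hexa (0.522 RPKM) than in the controls (0.311 RPKM). The part of these tissues in the Hexa differences of the tanning genes was not tested.

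**Figure D4:**
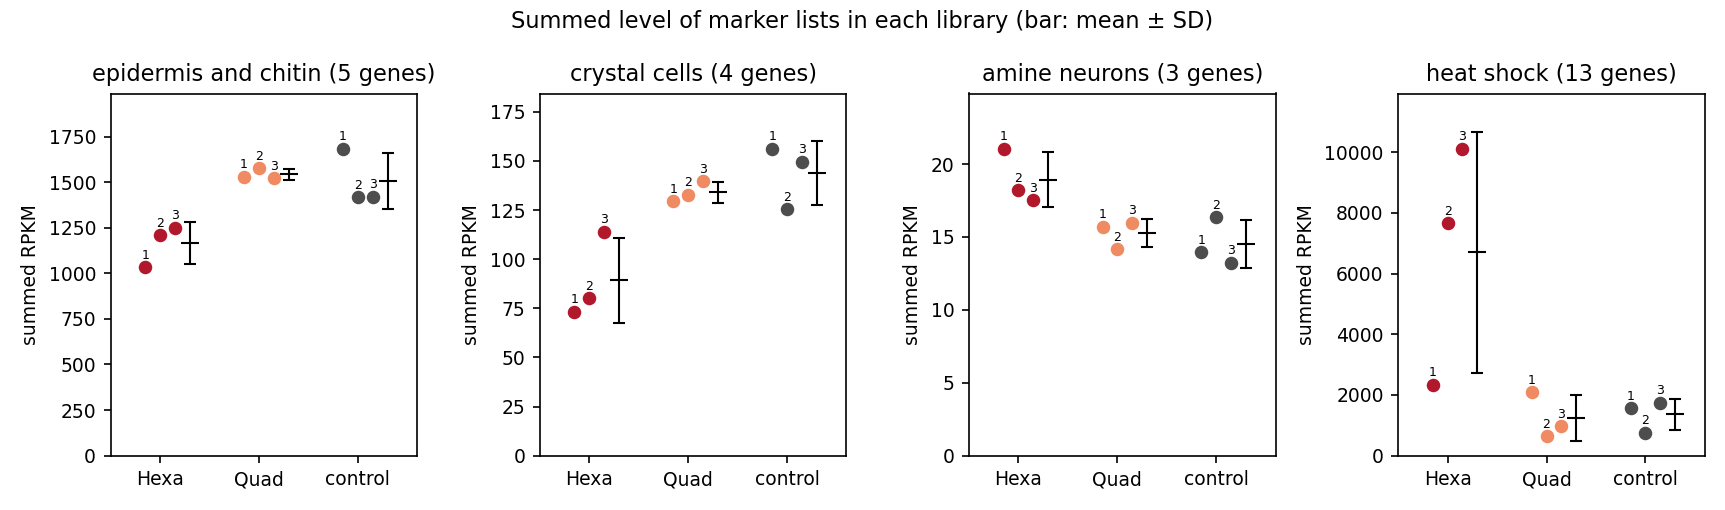
Summed RPKM of 4 marker lists in Hexa, Quad and control libraries, with numbered points for libraries 1 to 3 and a bar for the mean ± SD (axes from 0). Hexa libraries lie below the others for epidermis and chitin (1033 to 1250 RPKM) and for crystal cells, and Hexa 2 and Hexa 3 lie far above them for heat shock genes.

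Hexa libraries also differed in RNA of heat shock genes, which are induced by heat and other stress. The 13 listed heat shock genes summed to 2342, 7666 and 10110 RPKM in Hexa 1, 2 and 3, 2100, 641 and 961 in Quad and 1567, 762 and 1746 in the controls. Hexa 1 was thus close to Quad 1. With Hexa 1 as the only Hexa library, y, laccase2, yellow-f and e gave log2 0.88, -0.68, 1.14 and -0.40 against the control. With all Hexa libraries they gave 0.63, -0.75, 1.04 and -0.47. Against Quad, laccase2, yellow-f and Pu gave log2 -0.79, 1.37 and 0.53 with Hexa 1 alone, and -0.85, 1.27 and 0.45 with all. The other pathway genes called in Hexa against control or Quad kept their signs with Hexa 1 alone. Against the control, those higher gave log2 0.42 (Hn) to 0.98 (Pburs) and those lower -0.44 (yellow-h) to -1.07 (PPO2). Against Quad the ranges were 0.48 (Hn) to 1.17 (Pburs) and -0.435 (yellow-c) to -0.99 (PPO1). A lone library has no spread of its own, and the part of heat shock in these differences was not tested.

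Across the 9 libraries the members did not vary together. The closest pair was ple and laccase2 (Pearson r = 0.80 on the log2 scale), and e and laccase2 had r = 0.63, whereas yellow-f ran opposite to laccase2 (r = -0.79) and to e (r = -0.72), and Pu opposite to y (r = -0.75) and yellow-e (r = -0.75). These values describe 9 libraries, 3 of each genotype, so differences between the 3 genotypes are part of them. Among all tested genes with a name, the pattern of laccase2 was most like that of mys, which encodes an integrin beta subunit (r = 0.99), and of Sulf1 (r = 0.99). The pattern of y was most like that of tilB (r = 0.96) and Cyp6w1 (r = 0.93), that of ple like egl (r = 0.95) and lute (r = 0.93), and that of e like RpI135 (r = 0.93) and Cpr92F (r = 0.90), a cuticle protein gene. For yellow-f the closest were Eig71Ec (r = 0.96) and GNBP1 (r = 0.96), for Pu Tsp42Ed (r = 0.95) and alpha-Est5 (r = 0.94), and for yellow-e mab-21 and GluRS-m (r = 0.92 each).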

How the data were processed

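Titles of the samples gave genotype and library number. Per the labels, total RNA was sequenced with 150 bp reads. Aligner, counting software, genome build, annotation and use of strand are not given in the sources used here. No coordinates or sequences are reported. The authors deposited 1 gene table with a raw count, a linear RPKM and a log2 RPKM per library. Per the file headers the log2 values are log2 total RPKM, with -10.86 where RPKM is 0, set to 0 here after conversion. The 9 linear RPKM columns were not used, because headers of 2 controls name another driver. Deposited counts summed to 8555639 to 11687961 reads per library.

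Numbers of transcripts, overlaps and neighbours came from the BDGP6.54 annotation (Ensembl 115), and the symbol of 2 oxidase genes from RefSeq synonyms. Reads implied by RPKM were computed from RPKM, merged exon length and 1 constant per library (the median over genes with 1 transcript and at least 200 counts). Counts of y, e and yellow-e equal them (100.0%). Deposited counts of the other members, which have more transcripts, fell short of the reads so implied. Whether counts are too low or RPKM too high for such genes was not tested. The main test was limma (3.58.1, R 4.3.3, trend, robust) on log2(RPKM + 0.1), with a filter of 0.5 RPKM in 3 libraries. That scale understates changes of low genes. Alternatives were other pseudocounts, filters and scalings, a fit of the compared groups, a replicate block, edgeR 4.0.16 and DESeq2 1.42.0 on the counts, each library left out and, chosen after seeing the data, Hexa 1 alone. Tests were tried on simulated data first.

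The members, lists and main test were chosen with earlier results of these data known. Named were all members with a row, pathway genes called in any comparison, Hn, Catsup, t and w whatever their result, and the 2 named genes most like each member. Other genes of that rule (amd, AANAT1, grh) had no row. Libraries are biological replicates per the labels' protocols.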

Additional observations from a re-analysis of the deposited data

How the results depend on the processing

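Of 4 members called in Hexa against control the count fell to 1 in the fit of the 2 groups alone and 2 in edgeR with library totals, and ran from 1 to 4 when 1 library was left out. In Hexa against Quad, where 3 were called, edgeR with TMM called 0 (with and without its filter), edgeR with library totals 1 and DESeq2 1. That 1 was e (adjusted p = 0.0464 and 0.0431), which is not among the 3. Leaving out 1 library gave 1 to 3. Of 2 in Quad against control, every test on the counts gave 1 (edgeR with TMM, without filter and with library totals, and DESeq2), and leaving out 1 library 0 to 2. The pseudocounts, filters, TMM factors and plain moderation on RPKM left these counts within 1.5 times.

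Signs turned in the count tests, where counts of ple, laccase2, Pu and yellow-f fall short of the reads implied by RPKM. In the order edgeR with TMM, with library totals, without filter and DESeq2, ple gave log2 0.0575, 0.0506, 0.0644 and 0.0712 in Hexa against control, -0.29, -0.26, -0.30 and -0.29 in Quad against control and 0.35, 0.31, 0.37 and 0.37 in Hexa against Quad. In that order laccase2 in Quad against control gave -0.21, -0.17, -0.21 and -0.21, Pu in Hexa against Quad -0.11, -0.15, -0.0915 and -0.0932, and Hn in Hexa against control -0.0487, -0.0363, -0.0426 and -0.0373. The difference of yellow-f in Quad was 0.16 in edgeR without filter and 0.16 in DESeq2. With Hexa 1 alone w gave -0.30 against control and t -0.11 against Quad. Near 0, leaving out 1 library moved laccase2 in Quad from -0.0085 to 0.18, Hn in Quad from -0.19 to 0.017, yellow-e in Hexa against control from -0.16 to 0.11 and t in Hexa against Quad from -0.0677 to 0.18. The cause was not tested.

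The counts of all genes called depended on the setting. In Hexa against control 1997 genes became 925 in the fit of the 2 groups, 1033, 921 and 949 in edgeR and 962 to 2199 with 1 library left out, and 865 with Hexa 1 alone. In Hexa against Quad 1431 became 882 with the replicate block, 686, 534 and 637 in edgeR and 442 to 2004 with 1 library left out, and 640 with Hexa 1 alone. In Quad against control 290 ran from 132 to 363 with 1 library left out. TMM factors on RPKM changed the share of calls that were higher in Hexa against Quad from 58.4 to 46.5%, and in Hexa against control from 59.3 to 50.2%.

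The labels do not say that equal numbers pair the samples. Same-numbered libraries had correlated deviations of 0.098 to 0.18 in Quad and control, -0.15 to -0.035 in Hexa and control and -0.027 to 0.072 in Hexa and Quad. Each of the 6 libraries correlated best with its own number in the first pair, 0 of 6 in the second and 3 of 6 in the third, as a hint from the data. With the replicate block members called numbered 2 in Quad against control, 3 in Hexa against control (e was lost, adjusted p = 0.0628) and 3 in Hexa against Quad. Of the other named genes, the block ended the calls of Hn (adjusted p = 0.0545), yellow-h (0.0508) and ovo (0.0519) in Hexa against control and of Hn in Hexa against Quad (0.0503), and Catsup passed in Hexa against control (0.0454).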
